A study of Danio rerio with 12 samples.

Results

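The data described here are the solvent controls of a zebrafish microarray study at 2 ages, and they show which genes of the whole embryo differed between 72 and 24 hours post fertilisation (hpf). Members were taken from the labels: 3 arrays of embryos at 72 hpf in 0.1% DMSO and 3 arrays of embryos at 24 hpf in 0.1% DMSO, which is 6 of the 12 arrays of the series. Both groups were AB wild-type zebrafish raised at the same temperature, both were held in 0.1% DMSO for 3 h before freezing, and total RNA came from whole embryos. The other 6 arrays were embryos of the same 2 ages given 25 uM beclomethasone, a synthetic glucocorticoid, for 3 h. They helped to estimate the spread in the fit and are set beside the DMSO arrays once, at the end. No embryos without DMSO were analysed here, so both ages carry whatever the solvent does. The labels speak of triplicate experiments but do not give the number of embryos behind an array or say whether they shared a clutch. The p-values therefore measure the spread between these samples.

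Between these ages the zebrafish embryo passes from the end of somite formation, with a beating heart and a first set of neurons, to a hatched larva. By then its eyes, ears, liver, pancreas, gut tube, cartilages and swimming muscles are differentiating or starting to work. Dividing progenitors are held in place by Notch signals and SoxB factors. Cells that leave the cycle switch to the products of their final type, such as opsins in photoreceptors or digestive zymogens in the pancreas. In whole embryos, fewer cells of a type and less RNA per cell cannot be told apart, and this holds for every value below.

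Signals are single-colour intensities in scanner units. Each array was scaled by its 75th percentile of signal, which was 1002 to 1134 units on the 72 hpf DMSO arrays and 574 to 650 units on the 24 hpf DMSO arrays, a mean gap of 0.84 on the log2 scale. Per-array values below are unscaled units unless they are called log2 levels, and differences and p-values are always from the scaled log2 levels. No spot was marked saturated. The third 24 hpf DMSO array stood apart: 16764 of its 43803 spots were well above background, against 31210 to 37401 on the other 11 arrays. Its dimmest such spot read 215 units, against 11.8 to 19.5 units elsewhere. It correlated at 0.934 and 0.935 with the other 24 hpf DMSO arrays, which correlated with each other at 0.993, while the 72 hpf DMSO arrays correlated at 0.990 to 0.991. Where a 24 hpf reading of a gene named below lies under 215 units, that gene was well above background on 24 hpf replicates 1 and 2 but not on replicate 3, unless another number of arrays is given. The age groups also lay on different slides. All 24 hpf DMSO arrays were on 1 slide and the 72 hpf DMSO arrays on the other 2, so within the DMSO arrays slide and age cannot be told apart. A fit with slide as a block linked the slide of the 24 hpf DMSO arrays to the others through the 24 hpf beclomethasone arrays, and the other 2 slides to each other through the 72 hpf DMSO arrays.

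Of 24151 genes and unnamed probes tested, 7388 (30.6%) were higher at 72 hpf and 8865 (36.7%) were lower, by limma at a Benjamini-Hochberg adjusted p under 0.05, so 67.3% were called in 1 direction or the other. Of the calls 45.5% were higher, a share that was 31.8% with arrays centred on their median and 34.0% after another background correction. Calls of at least 2-fold numbered 4481 higher (18.6%) and 3708 lower (15.4%). The balance of these turned with the processing: median centring gave 3369 rises and 6241 falls. There were 2695 and 3154 after the other background correction, 3364 and 3753 with slide as a block, and 1090 and 2674 when signal well above background was required on all 6 DMSO arrays. At larger sizes, 455 features were called higher by at least 16-fold and 47 lower by at least 16-fold. Among 11755 named genes, 4072 were called higher and 4551 lower. The 3 arrays of each age did not overlap for 7133 features higher at 72 hpf (29.5%) and 8935 lower (37%). Largest changes and called list members named below were picked from these by rule, so their lack of overlap adds no support. The median difference over all features was -0.07 on the log2 scale. It was -0.40 with median centring and -0.28 after the other background correction. Differences smaller than about that size depend on the scaling. With slide as a block, 4673 features were called higher and 6501 lower. Without 24 hpf replicate 3 the counts were 9105 and 9767.

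**Figure D1:**
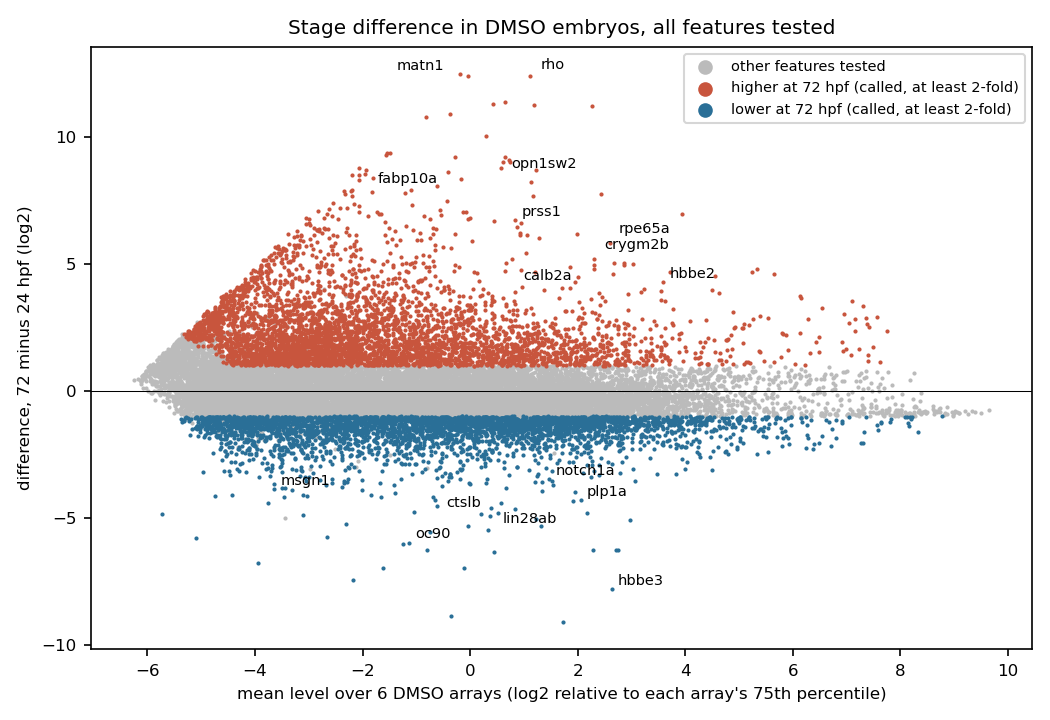
Difference between 72 and 24 hpf in DMSO (log2, vertical axis) against the mean log2 level over the 6 DMSO arrays (horizontal axis), 1 point per feature tested. Red points were called higher at 72 hpf by at least 2-fold (4481), blue points lower by at least 2-fold (3708), and grey points are the other features. The upper arm reaches rho and matn1 at differences above 12, and the lowest labelled gene is hbbe3 at -7.79.

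Detection shaped these counts. Of the features tested, 12662 were well above background on every array of the 72 hpf group only, 36 of the 24 hpf group only, and 11453 of both. Of the 12662, 9215 were also well above background on 24 hpf replicates 1 and 2 and missed only replicate 3. Passing the filter through 72 hpf alone, as used below, therefore does not mean absence at 24 hpf. Genes that passed through the 72 hpf arrays alone had to be well above background there, so counts over a gene list are descriptions. The lists were also written with earlier results of these data known. A list's share set beside that of all features is therefore a description and not a test. For many of the lists the count is also given for the members well above background on the 5 DMSO arrays other than 24 hpf replicate 3, fitted without that array. Over all 20668 such features, 6277 (30.4%) were higher and 9335 (45.2%) lower, with a median of -0.22. Each list count below is to be read beside these shares, or beside 30.6% higher and 36.7% lower where all tested members are counted. Where a gene was not well above background on any 24 hpf array its fold is a bound, written as "at least", with the bound without 24 hpf replicate 3 in brackets. The bound sets the mean at 72 hpf against, for each 24 hpf array, the higher of the probe's signal and the lowest signal well above background there. In all, 817 named genes were in that state at 24 hpf and well above background on all 72 hpf arrays. Only 1 named gene was in the opposite state. Of 24 marker genes for tissues of the whole embryo, 21 were tested, and all 21 were well above background on 24 hpf replicates 1 and 2. At 72 hpf 20 were above background on all 3 arrays, the exception being the hatching enzyme he1.1.

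Photoreceptor genes had the highest median difference of the 35 gene lists when all tested members were counted. Of 48 photoreceptor and visual cycle genes tested, 41 rose and 2 fell, with a median difference of 6.13, and 37 passed the filter through the 72 hpf arrays alone. Over the 30 members detected on the 5 arrays, 25 rose and 2 fell, with a median of 5.95. Over the 11 members well above background on all 6 arrays, 7 rose and 2 fell. Their median of 2.53 was below that of the lens genes so detected (2.68), so the first rank depends on detection. All 6 visual opsins tested were called higher. Rhodopsin, rho, the light receptor of rods, read 164318, 176489 and 178887 units at 72 hpf, against 9.21, 10.5 and 58.3 units at 24 hpf. This probe was not well above background on any 24 hpf array, so its signal was at least 2801-fold (6754-fold) higher at 72 hpf (adjusted p = 3.33e-08). Of the other 7 rho probes, those above background on 2 arrays at 24 hpf gave differences of 4.31 and 4.71, and the remaining 5 gave 10.53 to 13.09. The green cone opsin opn1mw1 read 76897, 67880.2 and 75226 units at 72 hpf, against 4.72, 20.4 and 44.8 units at 24 hpf, where 1 array was well above background. The red cone opsin opn1lw2 read 126390.0, 110042 and 129312 units at 72 hpf, against 21.1, 18.7 and 55.9 units at 24 hpf, again with 1 such array. Differences were 11.30 ± 0.60 (SE of the fit) for opn1mw1 and 11.25 ± 0.32 for opn1lw2, with adjusted p of 1.3e-07 and 3.19e-09, and that of opn1mw1 was 11.98 without 24 hpf replicate 3. Blue cone opsin opn1sw2 gave 34976, 32633 and 34002 units at 72 hpf, against 42.1, 37.6 and 49.9 units at 24 hpf, a difference of 8.79 ± 0.16 (adjusted p = 2.17e-10). The ultraviolet cone opsin opn1sw1 differed from these in being readily measured at 24 hpf. It read 15243, 14789.9 and 16441 units at 72 hpf, against 939.8, 1081 and 958 units at 24 hpf, and its difference of 3.13 ± 0.34 was the smallest of the 6. A further green opsin, opn1mw2, rose by 6.13 ± 0.36, with 1 array well above background at 24 hpf.

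Downstream of the opsins, transducin and shut-off genes also rose. The cone transducin gamma subunit gngt2b read 277728, 241715 and 246460.0 units at 72 hpf, against 65.8, 59.4 and 56.5 units at 24 hpf (11.20 ± 0.14, adjusted p = 4.38e-11), and its alpha subunit gnat2 rose by 8.70 ± 0.17. The opsin kinase grk1b was at least 93.4-fold (225-fold) higher at 72 hpf (adjusted p = 7.13e-06). The visual cycle isomerase rpe65a, made in the pigment epithelium, was well above background on every array and read 48433, 59472 and 43213 units at 72 hpf, against 436, 506 and 538 units at 24 hpf. That is a difference of 5.83 ± 0.12 (adjusted p = 4.32e-10), and all arrays at 72 hpf lay far above those at 24 hpf. Cone arrestin arr3b, well above background on every array, read 2924, 3184 and 3770.4 units at 72 hpf, against 20.3, 19.6 and 822 units at 24 hpf, where replicate 3 stood far above the other 2 arrays. Its difference was 4.73 ± 1.14 with that array and 6.47 without it, and the call was lost with slide as a block (adjusted p = 0.148). Its other 2 probes gave 7.55 and 6.11. The 2 members that fell were unc119b (-1.50), a carrier of lipid-modified proteins, and the pineal opsin exorh (-0.92). Transducin beta gnb1b (0.08) and the retinol acyltransferase lrata (0.42) were not called.

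Among 21 eye field and retinal progenitor factors the direction was mixed: 7 rose and 12 fell. Of the 19 detected on the 5 arrays, 26.3% rose and 57.9% fell, against 30.4% and 45.2% of all such features. vsx1, kept by bipolar neurons, read 5555, 5481 and 5506 units at 72 hpf, against 302, 314 and 287 units at 24 hpf (3.36 ± 0.10, adjusted p = 3.18e-09). The ages did not overlap. six7, a factor of the photoreceptor lineage in zebrafish, rose by 6.89 ± 0.78 at its brightest probe, which was above background on 1 array at 24 hpf (7.70 without 24 hpf replicate 3), while its other 2 probes gave 0.02 and 2.64. The temporal retina factor foxd1 fell (-1.33 ± 0.08).

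Crystallins, the packed proteins of the lens, rose almost throughout. Of 50 lens genes tested, 47 rose and 1 fell (median 2.87), and of the 42 detected on the 5 arrays 40 rose. All 24 gamma-M crystallins were called higher by at least 2-fold, with differences of 2.38 to 7.09, and all 11 beta crystallins were called higher. crygm2b read 31915, 28484 and 36565 units at 72 hpf, against 397, 576 and 527 units at 24 hpf (5.19 ± 0.18, adjusted p = 7.77e-09). The gamma-M crystallins are near-identical copies, so probes may share their transcripts. Alpha A crystallin, cryaa, a small heat shock protein of the lens, read 3405, 2567 and 4692 units at 72 hpf, against 73.5, 70.3 and 55.5 units at 24 hpf, a difference of 4.87 ± 0.27. The lens membrane gene lim2.5 was at least 30.7-fold (74.1-fold) higher (adjusted p = 8.33e-06). crygs1, of the gamma-S class, was the only one of the lens genes that fell (-0.87 ± 0.30, adjusted p = 0.0252), and the call was lost with slide as a block (adjusted p = 0.31) and when 24 hpf replicate 1, 72 hpf replicate 1 or 72 hpf replicate 3 was left out (adjusted p of 0.0612 to 0.0925). crygs3 (0.48) was not called.

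In the inner ear, 7 of 14 genes rose and 3 fell. Of the 11 detected on the 5 arrays, 54.5% rose and 27.3% fell, against 30.4% and 45.2% of all such features. Otolith genes moved in opposite directions. Otoconin oc90, an early protein of the otolith, read 66.8, 60.5 and 60.5 units at 72 hpf, against 2285, 2069 and 2214 units at 24 hpf, a difference of -5.97 ± 0.11 on the log2 scale (adjusted p = 2.32e-10). Otolith matrix protein otomp read 617, 785 and 756 units at 72 hpf, against 58.5, 78.4 and 61.3 units at 24 hpf, a rise of 2.61 ± 0.11 on the log2 scale. s100t, a calcium-binding protein of hair cells, rose by 3.50 ± 0.07 (adjusted p = 4.06e-10). The hair cell factor gfi1aa was at least 1.76-fold (4.25-fold) higher, a call lost with slide as a block (adjusted p = 0.209).

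**Figure D2:**
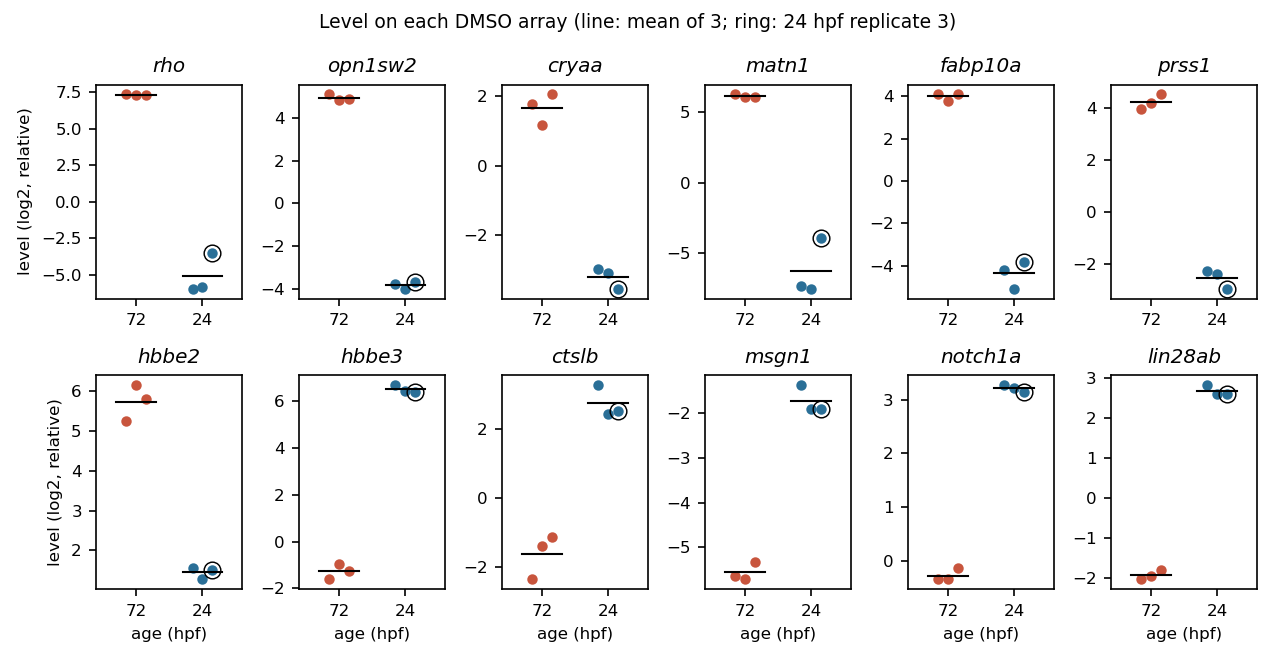
Log2 level relative to the array's 75th percentile (vertical axis, own scale per panel) of 12 genes on each DMSO array, 72 hpf in red and 24 hpf in blue, with a line at the mean of 3 and a ring on 24 hpf replicate 3. In every panel the 3 arrays of each age stand apart from those of the other. For rho and matn1 the ringed array lies above the other 24 hpf arrays.

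Genes of neural progenitors fell while those of mature neurons rose. Of 23 progenitor and proneural genes 20 fell and 2 rose, with a median of -2.04. All 23 were detected on the 5 arrays, where 87% fell, against 45.2% of all such features. The Notch receptor notch1a read 789.7, 896 and 1030.1 units at 72 hpf, against 5558, 5620.4 and 5728 units at 24 hpf (-3.48 ± 0.12, adjusted p = 7.84e-09). The proneural factor neurog1 read 722, 845 and 844 units at 72 hpf, against 4429, 4511 and 4867 units at 24 hpf (-3.36 ± 0.06). The SoxB genes sox3 (-3.26 ± 0.08) and sox19a (-3.23 ± 0.07), which hold cells in the progenitor state, also fell. For each of these the ages did not overlap. fabp7a, a fatty acid binding protein of radial glia, was an exception and read 118159, 115281 and 110139 units at 72 hpf, against 19217, 21415 and 22432 units at 24 hpf (1.61 ± 0.09, adjusted p = 2.08e-07).

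Of 28 neuron and synapse genes 23 rose and 2 fell (median 1.58). On the 5 arrays 23 of 26 rose. The vesicle fusion gene snap25b read 3770.4, 4059.6 and 4302 units at 72 hpf, against 53.3, 80.6 and 43.3 units at 24 hpf (5.31 ± 0.20, adjusted p = 1.42e-08). The calcium-buffering genes of particular neurons moved alike: calretinin calb2a read 30249, 30226 and 29555 units at 72 hpf, against 509, 533 and 579.7 units at 24 hpf (4.96 ± 0.07), and pvalb6 rose by 5.03 ± 0.10. elavl3, an RNA-binding protein of newly born neurons, fell. Its unscaled signals of 972, 1310.0 and 1566 units at 72 hpf and 1349, 1566 and 1504 units at 24 hpf overlapped, and its log2 levels of -0.04, 0.21 and 0.47 at 72 hpf and 1.23, 1.38 and 1.21 at 24 hpf did not (-1.06 ± 0.17, adjusted p = 0.000308).

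Transmitter genes rose in 22 of 28 cases and fell in 2, and 20 of them passed through 72 hpf alone. On the 5 arrays 20 of 23 rose. The NMDA receptor subunit grin1b read 3449.9, 3909.7 and 4071 units at 72 hpf, against 55.4, 49.7 and 49.8 units at 24 hpf (5.37 ± 0.17, adjusted p = 6.3e-09). The GABA carrier slc6a1a rose by 4.75 ± 0.09, the GABA receptor subunit gabrb2a by 5.01 ± 0.19 and the AMPA receptor subunit gria2b by 3.96 ± 0.13. The aromatic amino acid decarboxylase ddc fell at its brightest probe (-1.15 ± 0.12), but its other 8 probes ranged from -1.94 to 2.38, and the mean over probes was 0.64. Its direction is therefore not settled.

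Myelin and glia genes split, with 7 of 17 higher and 8 lower. Of the 15 detected on the 5 arrays, 33.3% rose and 53.3% fell, against 30.4% and 45.2% of all such features. The proteolipid gene plp1a fell. It read 1039, 1001 and 1023 units at 72 hpf, against 10781, 10998 and 11798 units at 24 hpf (-4.29 ± 0.08, adjusted p = 2.31e-10), and its other 6 probes gave -3.84 to -4.73. Claudin k, cldnk, of myelinating glia, read 2202, 2519 and 2382 units at 72 hpf, against 99.3, 105 and 73.4 units at 24 hpf (3.85 ± 0.16, adjusted p = 2.28e-08). The glutamate carriers of astroglia also parted, slc1a2b rising by 2.79 ± 0.09 and slc1a3a falling (-3.06 ± 0.08). sox10, a neural crest and glia factor, was not called (-0.07).

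Of 63 skeletal muscle contractile genes tested, 45 rose and 13 fell, with a median of 0.60, and 19 rose and 3 fell by at least 2-fold. Of the 61 detected on the 5 arrays, 70.5% rose and 21.3% fell, against 30.4% and 45.2% of all such features. The troponin complex, which couples calcium to contraction, held the largest differences: 12 of 13 troponin genes rose and 1 fell. tnni2b.2 read 33700.1, 36188 and 35063 units at 72 hpf, against 87.5, 113 and 88.1 units at 24 hpf (7.68 ± 0.10, adjusted p = 4.75e-11). Its neighbour in name, tnni2b.1, read 16849, 18504 and 20138 units at 72 hpf, against 53128, 59186 and 62396 units at 24 hpf (-2.49 ± 0.06, adjusted p = 1.71e-09). The ages did not overlap for either of these fast troponin I copies. The myosin binding protein mybpc1 was at least 11.2-fold (26.9-fold) higher. Actin acta1b (0.29), myosin light chain mylpfa (-0.25) and myosin heavy chain myhz1.1 (-0.10, not called) changed sign with the scaling or between probes. The value of acta1b was -0.04 with median centring, that of mylpfa 0.20 with quantile normalization and that of myhz1.1 0.52 with quantile normalization. The calls of acta1b and mylpfa were lost with slide as a block (adjusted p = 0.254 and 0.341), and that of mylpfa without replicate 2 of either age (adjusted p = 0.0591 at 72 hpf and 0.0504 at 24 hpf). Creatine kinase ckma rose by 0.76 ± 0.07, and its other probe gave 4.42. The sarcoplasmic reticulum protein srl fell at its brightest probe (-2.61 ± 0.11) but gave 0.05 at the other.

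Upstream of these, 9 of 20 myogenic regulators fell and 2 rose, with a median of -0.30. Of the 19 detected on the 5 arrays, 52.6% fell and 5.26% rose, against 45.2% and 30.4% of all such features. The share of falls was thus only a little above that of all features, while rises were fewer. The determination factor myod1 read 1895, 1832 and 1867 units at 72 hpf, against 2467, 2454 and 2596 units at 24 hpf (-1.26 ± 0.08, adjusted p = 3.4e-07). The precursor factors pax3a (-2.27 ± 0.16) and pax7b (-1.47 ± 0.17) also fell. Myostatin mstnb, a brake on muscle growth, rose, with a bound of at least 3.49-fold (8.42-fold) at this probe and a call that was lost with slide as a block (adjusted p = 0.22). Smooth muscle actin acta2 read 20900.5, 21971 and 20977 units at 72 hpf, against 387, 410.2 and 422 units at 24 hpf (4.87 ± 0.06, adjusted p = 4.38e-11).

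In the heart list 10 of 25 genes rose, 4 fell and 11 were not called. Of the 22 detected on the 5 arrays, 50% rose and 18.2% fell, against 30.4% and 45.2% of all such features. Cardiac myosin light chain myl7, a marker of all heart muscle, was not called (0.17 ± 0.11, adjusted p = 0.193), while the ventricular myosin heavy chain myh7 read 1676, 2139 and 1915 units at 72 hpf, against 389, 408 and 381 units at 24 hpf (1.44 ± 0.08, adjusted p = 2.26e-07). The flow-responsive factor klf2a read 3672, 3170.1 and 4474 units at 72 hpf, against 338, 333 and 319 units at 24 hpf (2.66 ± 0.12). notch1b, of endocardium and vessels, fell (-2.72 ± 0.13). The lists can share members, and notch1b is also counted among the neural progenitor genes and the blood vessel genes. Blood vessel genes did not share a direction: 8 of 28 rose and 11 fell, with a median of -0.04. Detection on the 5 arrays kept all 28, of which 8 rose (28.6%) and 12 fell (42.9%). These shares were near the 30.4% and 45.2% of all such features. The fenestrated-vessel gene plvapb rose by 2.57 ± 0.10, and the tight junction gene cldn5a fell (-2.41 ± 0.15) (adjusted p = 2.24e-08 and 4.58e-07). The receptor kdrl was dim at both ages. It read 41.3, 46.6 and 46.4 units at 72 hpf, against 30, 30.2 and 46.2 units at 24 hpf, and its difference of -0.47 turned to 0.03 under quantile normalization and was not called with slide as a block (adjusted p = 0.295).

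The globins, the oxygen carriers of red cells, did not share a direction. Of 7 globin genes tested 4 rose, 2 fell and 1 was not called. The beta globin hbbe3 had the largest fall of the named genes. It read 326, 587 and 477 units at 72 hpf, against 60242, 52583 and 55455 units at 24 hpf (-7.79 ± 0.22, adjusted p = 3.19e-09). The beta globin hbbe2 went the other way and read 38046, 80725 and 62352 units at 72 hpf, against 1703, 1458 and 1839 units at 24 hpf (4.28 ± 0.19, adjusted p = 4.32e-08). Neither gene's ages overlapped. Alpha globin hbae3 read 235588, 326128 and 278094 units at 72 hpf, against 71634, 64174 and 69119 units at 24 hpf (1.19 ± 0.10). hbae1.1 rose by 0.79 ± 0.14 and hbaa2 by 1.34 ± 0.35, while hbae4 fell by a small amount (-0.41 ± 0.12), a call lost with slide as a block (adjusted p = 0.38), and hbba2 was not called (-0.37). Globins are close copies, and how far their probes share transcripts was not tested. All 4 heme synthesis enzymes tested were lower, with differences of -1.42 to -0.76, among them alas2 (-0.81 ± 0.21, adjusted p = 0.00606). One of the other 3 alas2 probes gave 0.35, and the alas2 call was lost with slide as a block (adjusted p = 0.176). The iron carrier slc25a37 fell (-2.23 ± 0.37) and the red cell carbonic anhydrase cahz rose by 2.27 ± 0.12. Over the whole list of 29 genes 11 rose and 11 fell. All 29 were detected on the 5 arrays, where 41.4% rose and 41.4% fell, against 30.4% and 45.2% of all such features.

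Among 35 leukocyte genes 17 rose and 6 fell. On the 5 arrays 15 of 28 rose (53.6%) and 21.4% fell, beside 30.4% and 45.2% of all such features. The neutrophil genes lysozyme lyz, which read 1853, 2549 and 1654 units at 72 hpf, against 215, 249 and 211 units at 24 hpf (2.31 ± 0.18), myeloperoxidase mpx (2.13 ± 0.09) and npsn (2.42 ± 0.22) rose. The oxidase subunit cybb fell (-1.82 ± 0.22). The list's median of 0.46 became -0.36 over the 11 members well above background on all 6 arrays, and -0.10 after the other background correction.

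Liver products rose broadly. Of 51 genes 41 rose and 3 fell (median 1.89). On the 5 arrays 30 of 36 rose, with a median of 1.57. The liver fatty acid binding protein fabp10a read 17196, 15709 and 19393 units at 72 hpf, against 31.8, 17.8 and 46.4 units at 24 hpf (8.35 ± 0.29, adjusted p = 9.11e-09). The tyrosine breakdown enzyme hpda read 4947, 5563 and 3864 units at 72 hpf, against 57, 62.7 and 50.5 units at 24 hpf (5.55 ± 0.15). The bile acid enzyme cyp8b1.1 was at least 28.1-fold (67.9-fold) higher and the glyoxylate enzyme agxtb at least 10.5-fold (25.3-fold). The hepatic factor onecut1 fell (-1.73 ± 0.09) (adjusted p = 1.02e-07). In the apolipoprotein list 11 of 19 rose and 4 fell. On the 5 arrays 10 of 17 rose and 4 fell. apoa2 rose and read 22434, 40365 and 33808 units at 72 hpf, against 1241, 1216 and 1278 units at 24 hpf (3.81 ± 0.18). apoa4a fell to 368, 975 and 728 units at 72 hpf, against 1827, 1705 and 1870.5 units at 24 hpf (-2.33 ± 0.28, adjusted p = 3.64e-05). apoeb was not called (-0.03).

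Enzymes that modify foreign and endogenous lipophilic compounds rose in 26 of 40 cases and fell in 4. Of the 28 measured on the 5 arrays, 19 rose. The glucuronosyltransferase ugt1a1 read 3948, 3927 and 3947 units at 72 hpf, against 71.2, 81.2 and 45.7 units at 24 hpf (adjusted p = 3.3e-08), and the glutathione transferase gstp1.1 was at least 23.1-fold (55.7-fold) higher. The retinoic acid hydroxylase cyp26c1, which patterns the embryo, fell (-3.05 ± 0.10) (adjusted p = 6.99e-09).

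Digestive zymogens of the exocrine pancreas rose in 20 of 24 cases and fell in 2 (median 3.64), but 22 passed through 72 hpf alone. Only 2 were well above background on all 6 arrays, with a median of -0.34. Trypsin prss1 read 15408, 20393 and 25829 units at 72 hpf, against 119.9, 115 and 84.7 units at 24 hpf (6.74 ± 0.23, adjusted p = 8.6e-09). The chymotrypsinogens ctrb.1 and ctrl were at least 87.9-fold (212-fold) and 74.8-fold (180.5-fold) higher. Over the 11 detected on the 5 arrays, 6 rose and 2 fell. Elastase ela2 read 878, 2275 and 3674 units at 72 hpf, against 350.1, 329 and 301 units at 24 hpf. The first 72 hpf array was lowest and the third highest, and the ages did not overlap. The call of ela2 (1.74 ± 0.62, adjusted p = 0.0299) was lost with slide as a block (adjusted p = 0.485) and without 24 hpf replicate 3 (adjusted p = 0.0562). It was further lost without 24 hpf replicate 1 or 2 or 72 hpf replicate 2 or 3 (adjusted p of 0.0529 to 0.11).

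Hormone genes rose in 26 of 46 cases and fell in 7, and the median of 1.73 became -0.35 over the 14 genes well above background on all 6 arrays. On the 5 arrays 15 of 28 rose (53.6%) and 8 fell (28.6%), beside 30.4% and 45.2% of all such features. Oxytocin oxt, of the hypothalamus, was at least 19.9-fold (48-fold) higher (adjusted p = 0.000795), and the stanniocalcin gene stc1l at least 12.7-fold (30.5-fold). The gut and brain peptide vip was at least 9.44-fold (22.8-fold) higher, with the call lost with slide as a block (adjusted p = 0.057). Of the insulin copies, insb, known in zebrafish as an early form, fell. It read 17, 25.6 and 27 units at 72 hpf, against 47.6, 42.9 and 46.2 units at 24 hpf (-1.84 ± 0.16, adjusted p = 3.22e-06), and the call was lost under quantile normalization (adjusted p = 0.0879).

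In the intestine 27 of 35 genes rose and 5 fell. On the 5 arrays 13 of 20 rose, with a median of 1.58. The 8 members whose shown probe was well above background on all 6 arrays had a median of 0.54, with 4 higher and 3 lower. When such probes alone were used and each gene's brightest probe chosen among them, the median was -0.21. Villin vil1, which bundles actin in microvilli, read 6608, 6194 and 7578 units at 72 hpf, against 29, 33 and 42.9 units at 24 hpf (6.78 ± 0.17, adjusted p = 1.39e-09). The bile acid binding protein fabp6 was at least 34.1-fold (82.2-fold) higher, and the gut claudin cldn15la rose by 6.30 ± 0.26. Of 28 pronephros genes 17 rose and 6 fell. With detection on the 5 arrays, 14 of 22 rose (63.6%) and 27.3% fell, beside 30.4% and 45.2% of all such features. The kidney and liver factor hnf1ba rose by 1.89 ± 0.07 at its brightest probe while its other 2 gave 0.06 and 2.11, and the Notch ligand jag2b fell (-1.80 ± 0.09). The median of the kidney list, 0.87, was -0.48 when only probes well above background on all 6 DMSO arrays were used.

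Ion-transporting cells of the skin gave 19 rises and 1 fall among 26 genes. Among 17 detected on the 5 arrays, 13 rose. The sodium pump subunit atp1a1a.3 read 1031, 1580.2 and 1279 units at 72 hpf, against 51.3, 54 and 60.9 units at 24 hpf (3.69 ± 0.14, adjusted p = 1.49e-08). The calcium channel trpv6 was at least 7.53-fold (18.2-fold) higher, and the ammonia channel rhbg rose by 2.44 ± 0.15. The calcium pump atp2b1a was lower by a small amount (-0.70 ± 0.13), a call lost with slide as a block (adjusted p = 0.0706).

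Keratin and epidermis genes did not move together, 12 of 37 rising and 11 falling. Of the 35 detected on the 5 arrays, 34.3% rose and 31.4% fell, against 30.4% and 45.2% of all such features. Keratin krt15 read 40271, 46230.4 and 46222 units at 72 hpf, against 2083, 1895 and 2241 units at 24 hpf (3.58 ± 0.08, adjusted p = 6.08e-10), and krt1-19e rose by 3.74 ± 0.09. The transglutaminase tgm1l4, a protein cross-linker, read 602, 901 and 619.8 units at 72 hpf, against 4876, 6272 and 7001 units at 24 hpf (-3.94 ± 0.17, adjusted p = 3.95e-08), and annexin anxa1c fell (-3.08 ± 0.09). The skin marker krt4 had no settled direction. Its brightest probe read 275093, 279408 and 281107 units at 72 hpf, against 268117, 287609 and 281575 units at 24 hpf, overlapping before scaling. It gave a scaled difference of -0.84, its other 8 probes gave -0.28 to 1.21, and the mean over probes was 0.23.

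Cartilage and bone genes rose in 23 of 35 cases and fell in 5, and 21 of the 31 detected on the 5 arrays rose. Matrilin matn1, a matrix protein of cartilage, read 78154, 76858 and 76452 units at 72 hpf, against 3.62, 3.27 and 43.9 units at 24 hpf. No probe of matn1 was above background at 24 hpf, so it was at least 1248-fold (3010.3-fold) higher at 72 hpf (adjusted p = 3.66e-07). Its other probes gave fitted differences of 7.44 and 6.10, which are smaller. Collagen X, col10a1a, of hypertrophic cartilage and bone-forming cells, was at least 80.1-fold (193-fold) higher at its brightest probe. Collagen IX, col9a1a, read 2451, 3895 and 3047 units at 72 hpf, against 19.4, 37.1 and 44.3 units at 24 hpf (5.76 ± 0.25, adjusted p = 3.85e-08). Collagen II, col2a1a, which the notochord also makes, was bright at both ages. It read 235965, 231276 and 186829 units at 72 hpf, against 90169.5, 78507 and 79662 units at 24 hpf (0.55 ± 0.15, adjusted p = 0.0079), and the call was lost with median centring and with slide as a block (adjusted p = 0.2 and 0.0853). Among 25 collagen and connective tissue genes 17 rose and 2 fell. On the 5 arrays 16 of 22 rose and 3 fell. The actinodin and2, of fin fold rays, rose by 2.73 ± 0.17, the collagen cross-linking enzyme loxa was at least 25.6-fold (61.7-fold) higher, and collagen V subunit col5a3a fell (-3.63 ± 0.15).

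Pigment cell genes did not share a direction, with 7 of 22 higher and 9 lower. Of the 21 detected on the 5 arrays, 8 were higher (38.1%) and 10 lower (47.6%). Over all such features the shares were 30.4% and 45.2%. The melanosome matrix genes pmela (1.67 ± 0.08) and pmelb (1.85 ± 0.08) rose. The pteridine synthesis genes gch2 (-1.66 ± 0.26) and pts (-1.83 ± 0.25) fell, gch2 reading 5487, 13475 and 10949 units at 72 hpf, against 16771, 15284 and 17408 units at 24 hpf.

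In the hatching gland, which releases the enzymes that open the chorion, 4 of 9 genes fell and 2 rose. Of the 8 detected on the 5 arrays, 3 fell (37.5%) and 3 rose (37.5%). Over all such features 45.2% fell and 30.4% rose. The 8 leave out he1.1, which fell (-5.23) and was well above background on only 2 arrays at 72 hpf. The split therefore cannot tell whether the list had an excess of falls. Hatching enzyme he1.2 read 66.7, 384 and 335 units at 72 hpf, against 6357, 4406 and 4629.5 units at 24 hpf (-5.46 ± 0.56, adjusted p = 1.36e-05). The gland protease ctslb read 193, 428 and 516 units at 72 hpf, against 5673, 3313 and 3766 units at 24 hpf (-4.40 ± 0.43, adjusted p = 9.78e-06). For both genes, and for he1.1 (7.34, 78.9 and 79.9 units at 72 hpf, against 851, 678 and 740.3 units at 24 hpf), the first 72 hpf array was below the other 2, and the ages did not overlap. agr2, a secretory chaperone shared with mucous cells, rose by 2.06 ± 0.10.

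Of 13 somite segmentation and tailbud genes 10 fell and 2 rose (median -1.29). All 13 were detected on the 5 arrays, where 76.9% fell, against 45.2% of all such features. The presomitic mesoderm factor msgn1 read 19.9, 21.4 and 28 units at 72 hpf, against 224, 162 and 173 units at 24 hpf (-3.85 ± 0.18, adjusted p = 4.93e-08). The posterior factor cdx4 (-3.36 ± 0.15) and the segmentation clock gene her12 (-3.11 ± 0.17) also fell. The Notch ligand dld, also active in neurogenesis, rose to 28546, 34726 and 31044 units at 72 hpf, against 6819, 8491 and 9062 units at 24 hpf (1.12 ± 0.09). Notochord and midline signals fell in 13 of 16 cases and rose in 1, with 5 falls of at least 2-fold. Of the 15 detected on the 5 arrays 86.7% fell, against 45.2% of all such features. Over the 13 well above background on all 6 arrays the median was -0.64, against -0.39 over all features so detected. The notochord factor noto read 36.6, 38.7 and 26.8 units at 72 hpf, against 157, 161 and 129 units at 24 hpf (-2.97 ± 0.19, adjusted p = 3.71e-07). Laminin lama1, of the notochord sheath and other basement membranes, fell (-3.48 ± 0.16). The signal shhb was called higher by a small amount (0.22 ± 0.06), with -0.11 under median centring and the call lost with slide as a block (adjusted p = 0.13).

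Hox genes, which assign position along the body axis, fell in 29 of 45 cases and rose in 2, with a median of -0.60. In paralogue groups 1 to 4, the anterior ones, 13 of 14 fell and none was called higher (median -1.10). In groups 5 to 8, 7 of 11 fell and 1 rose (median -0.36), and in groups 9 to 13, 9 of 20 fell and 1 rose (median -0.39). Over all features 36.7% were called lower, so the share of falls in groups 9 to 13 was not far above that. The medians of groups 5 to 8 and 9 to 13 are of the size that depends on the scaling. The difference between these blocks was not tested. With slide as a block 8 Hox calls were lost, those of hoxb5b, hoxc8a, hoxa9b, hoxd9a, hoxd10a, hoxd12a, hoxc13a and hoxc13b (adjusted p of 0.0525 to 0.618). hoxc1a read 264, 282 and 230.4 units at 72 hpf, against 1308, 1286 and 1430.4 units at 24 hpf (-3.21 ± 0.12, adjusted p = 1.37e-08). hoxb1a (-2.29 ± 0.31), hoxb1b (-1.66 ± 0.11) and hoxb9a (-2.01 ± 0.11) were the next largest falls. hoxb5a rose and read 3283, 3107 and 2795 units at 72 hpf, against 891, 964 and 1048 units at 24 hpf (0.82 ± 0.11, adjusted p = 9.84e-05). The other gene called higher was hoxd10a (0.47 ± 0.16), whose call was also lost without 24 hpf replicate 1 or 3 or any 1 of the 72 hpf arrays (adjusted p of 0.0536 to 0.0727).

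**Figure D3:**
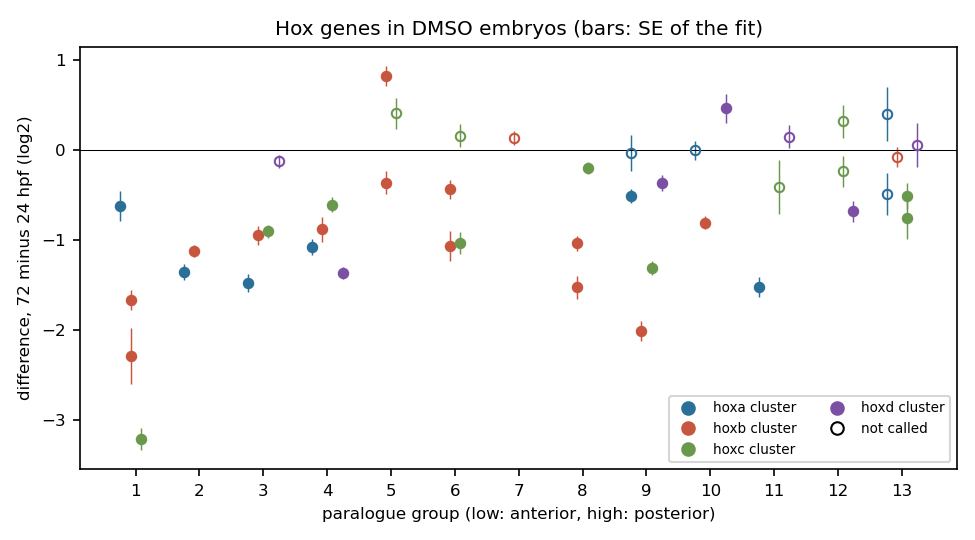
Difference between 72 and 24 hpf in DMSO (log2, vertical axis; bars are the SE of the fit) for 45 Hox genes by paralogue group (horizontal axis, anterior at the low end), coloured by cluster, with open circles for genes not called. Points of groups 1 to 4 lie between -3.21 and -0.12, and those of groups 9 to 13 lie on both sides of 0.

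Early timing genes, which mark embryonic and pluripotent states, fell in 19 of 23 cases and rose in 2. All 23 were detected on the 5 arrays, where 82.6% fell, against 45.2% of all such features. The RNA-binding protein lin28ab, which blocks maturation of let-7 microRNAs, read 245, 295 and 324 units at 72 hpf, against 4107, 3656 and 3954 units at 24 hpf (-4.61 ± 0.10, adjusted p = 6.07e-10). The ventral patterning repressor vox (-4.18 ± 0.23), sall4 (-3.18 ± 0.13) and the Nodal co-receptor tdgf1 (-3.02 ± 0.12) fell as well.

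DNA replication and cell cycle genes fell in 52 of 55 cases, with a median of -1.82. All 55 were detected on the 5 arrays, where 94.5% fell, against 45.2% of all such features. All 6 subunits of the MCM helicase, which unwinds replication origins, fell by differences of -2.47 to -1.72. mcm7 read 12280.0, 11658 and 14813 units at 72 hpf, against 37181, 38733 and 43622 units at 24 hpf (-2.47 ± 0.09, adjusted p = 1.1e-08). The helicase partner cdc45 (-2.44 ± 0.18), the origin licensing factor cdc6 (-2.42 ± 0.10) and the nucleotide reductase rrm1 (-2.41 ± 0.10) fell alike. The exception was cdkn1ba, an inhibitor of cyclin-dependent kinases, which read 413, 439.7 and 438 units at 72 hpf, against 83.1, 116 and 77.9 units at 24 hpf (1.41 ± 0.14, adjusted p = 1.23e-05).

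All 75 cytosolic ribosomal protein genes were called lower, in a narrow range of -1.26 to -0.28 with a median of -0.84. The size of this shift depends on the scaling. Before scaling, the median difference of these genes was 0.00 on the log2 scale, and the scaled fall is close to the gap of 0.84 between the arrays' 75th percentiles. Of the 75, 68 had mean signals above 100000 units. The other 124 features above that level had a scaled median of -0.71, with 35 called higher and 79 lower. Under quantile normalization the median of the ribosomal list was -0.33. rpl36 read 220170.0, 181379 and 193781 units at 72 hpf, against 261641, 261642 and 275141 units at 24 hpf (-1.26 ± 0.13, adjusted p = 1.6e-05).

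Energy metabolism genes rose. Of 66 oxidative phosphorylation genes 58 rose and none was called lower (median 0.58), so most rises were small. All 66 were detected on the 5 arrays, where 54 rose and 0 fell. With median centring the median was 0.26. The largest were in subunits of cytochrome c oxidase, the last complex of the respiratory chain. cox4i2 read 3297, 3589 and 3318 units at 72 hpf, against 59.3, 74.6 and 43.4 units at 24 hpf (5.04 ± 0.19, adjusted p = 1.26e-08), and cox7a1 (4.73 ± 0.14), cox6a2 (4.23 ± 0.16) and cox5b2 (2.99 ± 0.18) also rose. Glycolysis enzymes rose in 29 of 33 cases (median 1.56). On the 5 arrays 28 of 31 rose and 1 fell. Pyruvate kinase pkmb read 32978, 49684 and 33392 units at 72 hpf, against 1218, 1595 and 1491 units at 24 hpf (3.90 ± 0.15, adjusted p = 1.71e-08), enolase eno1b rose by 3.74 ± 0.12 and the isomerase gpia by 2.89 ± 0.12. The muscle aldolase aldoab was not called at its brightest probe (0.07), and its other probe gave 2.79. Hexokinase hk1 was lower by a small amount (-0.23 ± 0.05), a call lost with slide as a block (adjusted p = 0.116).

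**Figure D4:**
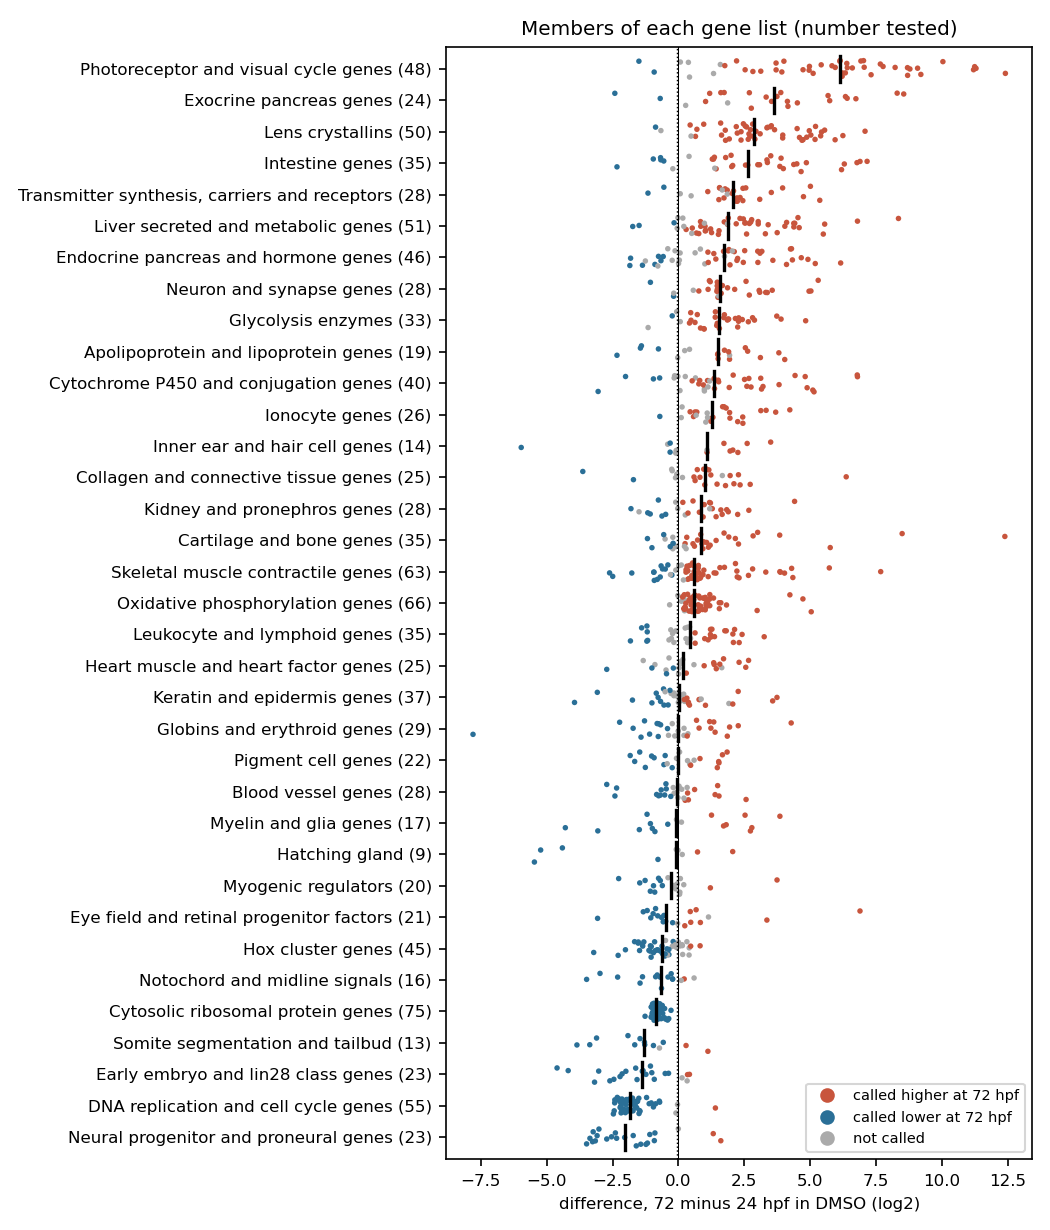
Differences between 72 and 24 hpf in DMSO (log2, horizontal axis) for the tested members of 35 gene lists, ordered by median, with the number tested in brackets. Each point is a gene (red called higher at 72 hpf, blue called lower, grey not called), the bar is the list median, and the dotted line is the median of all features at -0.07. Over the members shown, photoreceptor genes have the highest median (6.13) and neural progenitor genes the lowest (-2.04). Of the 48 photoreceptor genes, 37 passed the filter through the 72 hpf arrays alone.

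Some of the largest differences lay outside these lists. Among genes well above background on all 6 arrays the largest rise was zgc:136930, which read 178865, 204705 and 171135 units at 72 hpf, against 624, 915 and 1014 units at 24 hpf (6.95 ± 0.13, adjusted p = 2.82e-10). Complement factor D, cfd, a protease of innate immunity, read 23855, 40869.5 and 23704 units at 72 hpf, against 601, 536 and 562 units at 24 hpf (4.82 ± 0.21). The vitamin B12 carrier tcnba was at least 161-fold (389-fold) higher, zgc:153704 at least 153-fold (369-fold), tmx3a at least 128-fold (309.8-fold) and ependymin epd at least 113-fold (272-fold). Of the largest falls, protogenin prtga, a membrane protein of the early nervous system and somites, read 554, 621 and 665 units at 72 hpf, against 27332, 24782 and 25651 units at 24 hpf (-6.24 ± 0.08, adjusted p = 4.38e-11). The sodium and calcium exchanger slc8a4b read 80.7, 94.1 and 113 units at 72 hpf, against 2465, 2491 and 2471 units at 24 hpf (-5.54 ± 0.09). The kinase mapk12b read 168, 173 and 163 units at 72 hpf, against 3482, 3658 and 3993 units at 24 hpf (-5.30 ± 0.06), and smtnl1 fell (-4.66 ± 0.26). wu:fa26c03 (-6.35 ± 0.44), zgc:174855 (-6.04 ± 0.32) and si:dkey-26g8.5 (-5.03 ± 0.37) have no descriptive name here. The 1 named gene well above background on all 24 hpf arrays and on none at 72 hpf has no descriptive name and read 3.63, 4.51 and 3.42 units at 72 hpf, against 27.4, 17.7 and 471 units at 24 hpf. Replicate 3 set its level, its difference was -4.84 ± 0.95 with that array and -3.41 without it, and the call was lost with slide as a block (adjusted p = 0.119).

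The beclomethasone arrays gave a separate measurement of the same age difference on other arrays. Of the features tested, 13783 were called in both treatments, of which 13634 had the same sign. The difference of the age effects was called for 1687 features (6.99%). Of the 305 genes named by the rule, 30 were among them. The largest was troponin tnni2b.2, whose age difference was 7.68 in DMSO and 4.03 in beclomethasone. The rise of klf2a was 2.66 in DMSO and 4.21 in beclomethasone. For some of the gene groups above, the list medians in beclomethasone were 6.18 (photoreceptor), 3.27 (lens), 2.06 (liver) and -2.12 (cell cycle). In DMSO they were 6.13, 2.87, 1.89 and -1.82. Skeletal muscle genes had 0.60 in DMSO and 0.30 in beclomethasone, glycolysis genes 1.56 and 1.11, and globin and erythroid genes -0.01 and -0.52. The difference of the age effects was called for 19 of 55 cell cycle genes and 12 of 63 skeletal muscle genes. It was called for 11 of 29 globin and erythroid, 11 of 37 keratin and epidermis and 0 of 75 ribosomal protein genes. Other lists are not given here.

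**Figure D5:**
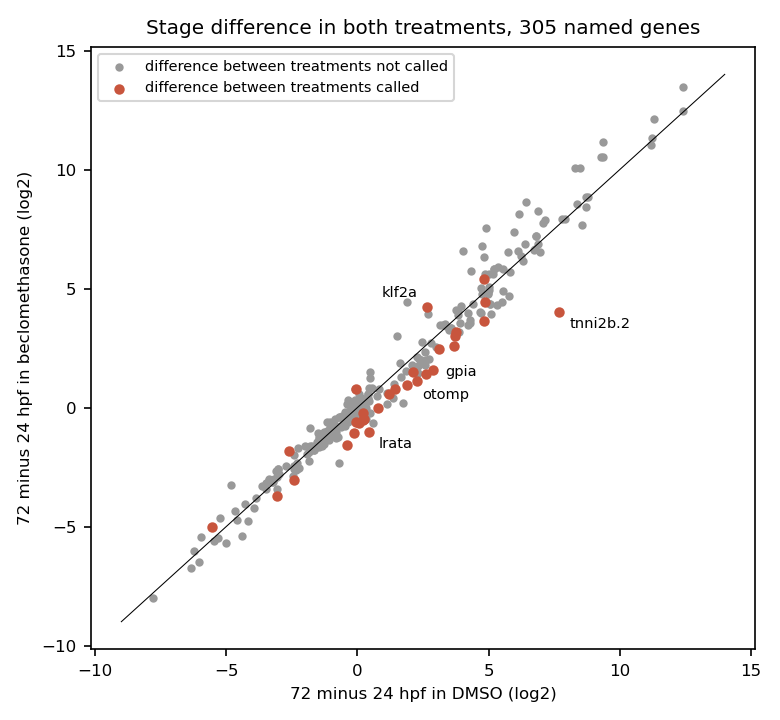
Age difference (72 minus 24 hpf, log2) in DMSO (horizontal axis) and in beclomethasone (vertical axis) for the 305 named genes, with the line of equality. Red marks the 30 genes whose age difference was called as differing between treatments. Among the 30 genes, tnni2b.2 lies farthest below the line and klf2a farthest above it.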

How the data were processed

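RNA of whole zebrafish embryos was measured on single-colour Agilent arrays. Per the file headers, spot intensities were deposited as processed signal from Feature Extraction 10.7.1.1, which had already subtracted background, on a design (026437) annotated to an older zebrafish build. The authors also deposited a log2 table. Each of its columns matched the scanner array of the same age and replicate number but the other treatment, so scanner labels were used. Receptor targets fkbp5, tsc22d3 and hsd11b2 were higher on the arrays labelled beclomethasone than on DMSO arrays of the same age in the scanner files. The submitters' processing notes also name limma, and its role is not given in the sources used here.

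Here each array was scaled by its 75th percentile after log2, outlier spots were dropped and spots of a probe averaged. Probes had to be well above background on all 3 arrays of at least 1 DMSO group. Of 43603 probes, 25069 were named through RefSeq accessions (assembly GRCz12tu), giving 12858 genes, and 18534 were left unnamed. Each gene is shown by its brightest probe over the DMSO arrays, and probes of a gene that differ are named. limma 3.58.1 in R 4.3.3 fitted 4 group means over 12 arrays (8 residual degrees of freedom). Calls need an adjusted p under 0.05 over all features. The number of arrays limits the precision. The script was tested on simulated data of 24151 features. Of the planted log2 differences it recovered 37 of 45 at -2, 32 of 47 at -1, 38 of 56 at 1 and 46 of 52 at 2. It also made 13 false calls. The simulation planted far fewer differences than the 67.3% of features called here, and drew independent noise with no slide effect. These rates therefore do not carry over to the age difference.

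Named genes were called genes with no overlap: the 12 largest rises and 12 largest falls measured at both ages, up to 8 largest bounds in each direction, up to 6 called members and up to 2 uncalled members with the highest signal in each of 35 lists, every tested member of the globin, visual opsin and Hox families, and fixed tissue markers. exorh and tnni2b.1 fall outside this rule and were named after their values were seen, to complete a count, as were the genes of the closing observations. Some named genes are not reported here. Members and lists were chosen with earlier results of these data known. The detection split on 5 arrays and the unscaled values of bright genes were added after seeing the data. Alternatives covered scaling, background, filter, probe choice, samples in the fit, slide and replicate blocks, array weights, the deposited table and each array left out. The files hold no mean signal, so the median signal took its place in the background alternative.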

Additional observations from a re-analysis of the deposited data

Results flagged for a closer look

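For 30 named genes the age difference itself differed between treatments by the test of that difference (limma, adjusted p under 0.05), among 1687 of 24151 features (6.99%). Values are the DMSO age difference minus that in beclomethasone, on the log2 scale. Muscle and energy genes included tnni2b.2 (3.65, adjusted p = 1.51e-05), srl (-0.78), acta2 (0.44), myh7 (0.66), six1b (0.72), gpia (1.3), eno1b (0.72) and pfkfb4b (-0.86). Red cell, blood and vessel genes included klf2a (-1.54, adjusted p = 0.00188), cahz (1.18), hbae3 (0.62), hbae4 (1.18, adjusted p = 0.0044), hbae1.1 (0.81, adjusted p = 0.0436), blvrb (0.74), mpx (0.65) and cfd (1.16). The eye and ear lists included lrata (1.44), crygm2d18 (-0.61) and otomp (1.22). In the skin, kidney, hormone and lipid lists were atp1a1a.3 (1.12), krt92 (0.71), krt1-19e (0.59), hnf1ba (0.94), cyp17a1 (0.96) and apoda.1 (0.64). Other genes were cdc6 (0.63), sox10 (0.55), slc8a4b (-0.51) and shhb (0.43). Treatments share slides unevenly, and the part of slide in these values was not tested.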

How the results depend on the processing

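Most results kept their direction and call. Of 228 calls among the 305 named genes, 187 kept both under every one of 18 alternatives that gave a value. Among the 18 was the deposited table as labelled, whose DMSO columns matched the scanner arrays labelled beclomethasone. The filter that asks for signal well above background on all 6 DMSO arrays gave a value for 129 of the 228. With slide as a block 194 of 228 were kept, 34 lost their call and none turned its sign. With only DMSO arrays in the fit 12 calls were lost, among them those of acta1b, alas2, crygs1, gfi1aa, mylpfa, hoxb5b, hoxc13b, hoxc8a, piwil1, pmchl and shhb (adjusted p of 0.0509 to 0.0921). Leaving out 1 DMSO array lost 2 to 8 of the 228 calls. Counts ran from 15194 to 18872 called, 6851 to 9105 higher, 8337 to 9767 lower, 4120 to 5893 higher by at least 2-fold and 3596 to 4294 lower by at least 2-fold across those 6 fits, with all the upper ends without 24 hpf replicate 3.

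In each of these settings some count moved by over 1.5 times, while some others given beside it moved less. Requiring signal on all 6 DMSO arrays left 11504 features, with 9384 called, 2872 higher and 6512 lower, and at least 2-fold 1090 higher and 2674 lower. The slide block gave 4673 higher. The other background correction gave 2695 higher and 3154 lower by at least 2-fold, and median centring 3369 higher and 6241 lower. A test against a 2-fold change in place of the fold threshold gave 2768 higher and 1833 lower. The share of calls that were higher was 45.5% as reported, 31.8% with median centring, 34.0% with the other background correction and 30.6% with signal required on all arrays. The labels do not say whether the replicate numbers pair the samples. Same-numbered DMSO arrays of the 2 ages deviated together with correlations of 0.05, 0.04 and 0.04. For arrays with different numbers the correlations were -0.039 to -0.00016. Values this small do not settle whether the numbers mark pairs. The replicate block gave 16310 calls (7412 higher, 8898 lower) and kept all 228 named calls.

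The sign of a list median turned where signal was required on all DMSO arrays for exocrine pancreas (-0.34), endocrine (-0.35), intestine (-0.21), kidney (-0.48) and leukocyte genes (-0.36), and for leukocyte genes with the other background correction (-0.10). Single genes, most of them small or uncalled, also turned. With median centring the sign turned for acta1b (-0.035), cyp2v1 (-0.27), gnb1b (-0.25), hoxa10b (-0.33), myl10 (-0.31), shhb (-0.11), six1b (-0.27) and tbx2b (-0.32). With the other background correction the sign turned for amy2al1 (-0.21), chrd (-0.37), igf2bp2a (-0.33) and piwil1 (-0.048). The DMSO columns of the deposited table matched the scanner arrays labelled beclomethasone, so as labelled it gives the age difference of those arrays. In the deposited table as labelled the sign turned for aplnra (-0.58), blvrb (-0.39), cdkn1bb (0.37), chrd (-0.79), hk1 (0.046), hoxa10b (-0.25), hoxb5b (0.0052), hoxb7a (-0.19), hoxd10a (-0.36), loxl2b (0.31), lrata (-1.09), myhz1.1 (0.44), mylpfa (0.25), otop1 (0.64), pfkfb4b (0.91), shhb (-0.29) and six1b (-0.53). With the mean over probes the sign turned for ddc (0.64), egfl7 (0.18), hmgb3a (0.27), hoxb13a (0.46), hoxd13a (-0.55), krt4 (0.23), matn4 (0.56), mpz (-1.05), myhz1.1 (0.65), mylpfa (1.12), six6a (0.39), slc11a2 (0.40), slc12a3 (0.65) and sox10 (0.22). With array weights the sign turned for foxa3 (0.50). Under quantile normalization the sign turned for hoxa1a (0.38), kdrl (0.032), myhz1.1 (0.52) and mylpfa (0.20). With the deposited columns joined to the arrays they match the sign turned for myhz1.1 (0.66) and mylpfa (0.29). foxa3 ranged from -0.32 to 0.46 with 1 array left out. The causes were not tested. Signals near background at 24 hpf, above all on replicate 3, limit the size of the largest rises, which are given as bounds.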

Other observations

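With detection at 24 hpf taken from replicates 1 and 2 alone, a choice made after seeing the data, 19 named genes were well above background there and on no 72 hpf DMSO array. The midbrain and hindbrain boundary repressor her5 read 3.85, 4.83 and 4.27 units at 72 hpf, against 92.2 and 83.3 units on those 24 hpf arrays, and was at least 11.3-fold lower at 72 hpf. The Nodal inhibitor lft1 was at least 10.4-fold lower, the maternal chromatin gene npm2b at least 9.07-fold, the apical polarity gene crb2a at least 7.26-fold and the mesoderm factor tbx16 at least 5.82-fold. The germline linker histone h1m was at least 4.24-fold lower.

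Genes known to respond to the glucocorticoid receptor differed by age on the DMSO arrays, where no beclomethasone was given. They were picked after their values were seen. tsc22d3 read 2427, 2405 and 2972 units at 72 hpf, against 393, 302 and 251 units at 24 hpf (2.22 ± 0.18, adjusted p = 1.97e-06). hsd11b2, which inactivates cortisol, read 1735, 2617 and 2171 units at 72 hpf, against 151, 144 and 137 units at 24 hpf (3.06 ± 0.12, adjusted p = 1.49e-08). fkbp5 read 486, 469 and 843 units at 72 hpf, against 10.6, 11.7 and 491 units at 24 hpf, where 1 array was well above background, so the ages overlapped through 24 hpf replicate 3, and its difference was 3.03 ± 1.17 (adjusted p = 0.0417) with that array and 4.81 without it. The receptor nr3c1 was slightly lower (-0.27 ± 0.09, adjusted p = 0.018).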
